A study of Mus musculus with 2 samples.

Results

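The 9 genes Gas5, Snhg1, Snhg3, Snhg5, Snhg6, Snhg8, Snhg12, Snhg15 and Snhg20 are long noncoding genes that carry small nucleolar RNAs (snoRNAs) in their introns. They were taken by symbol, and all 9 were found among the 55536 genes of the tables, 10155 of which the annotation calls long noncoding. The samples were 2 biological replicates of bone marrow-derived macrophages of strain C57BL/6J, which are macrophages grown from mouse marrow, given 100 ng/ml lipid A for 50 minutes. Lipid A is the part of bacterial lipopolysaccharide that activates the receptor TLR4. RNA of the nucleoplasmic fraction, depleted of ribosomal RNA, was sequenced as total RNA; the cell fraction label reads nucleus. Replicate 1 was made from 500 ng of RNA and replicate 2 from 1 µg. Untreated cells were not analysed here, and no level below is a response to lipid A.

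A snoRNA host gene is transcribed, spliced, and its introns are trimmed to release snoRNAs. Box C/D snoRNAs guide 2′-O-methylation of ribosomal RNA, and box H/ACA snoRNAs guide pseudouridylation. Box C/D snoRNAs carry a C box near the 5′ end and a D box near the 3′ end, and box H/ACA snoRNAs end with the letters ACA shortly before the 3′ end. The spliced exons of many hosts have no long reading frame, and some of these RNAs are degraded by nonsense-mediated decay when they reach ribosomes in the cytoplasm. Host transcripts often start with a run of pyrimidines, as the messengers of ribosomal proteins do.

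Depth in gene rows was 10342882 expected counts for replicate 1 and 20495545 for replicate 2. TPM (transcripts per 1000000) divides counts by transcript length and is used below to compare genes. Over the 11380 genes with a mean of at least 1 TPM, the median log2 ratio of replicate 2 to replicate 1 was -0.69 on TPM and -0.08 on CPM (counts per 1000000 gene counts), and every TPM pair below includes that common shift. All 9 macrophage marker genes reached 1 TPM in each library, with means from 17.9 to 1484 TPM. Of 15 markers of B cells, T cells, neutrophils, erythroid, stromal and endothelial cells, 1 reached 1 TPM in both, S100a8 at 1.47 ± 0.283 TPM (SD, n = 2). Among those with 0 counts in both were Cd3e, Cd8a, Hbb-bt and Ly6g.

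All 9 host genes reached 1 TPM in each library. The same held for 18.6% of all gene rows and 6.75% of long noncoding genes. Their median was 7.49 TPM in replicate 1 and 7.32 TPM in replicate 2, or 7.41 ± 0.120 TPM (SD, n = 2). The gene at the median was Snhg8 in replicate 1 and Snhg20 in replicate 2, so this SD is not the spread of a single gene. The 851 long noncoding genes with a mean of at least 1 TPM had a median of 2.97 ± 0.834 TPM, and the 9158 nuclear protein-coding genes above the same limit 6.47 ± 1.91 TPM (SD, n = 2). On TPM the members' median was thus above that of expressed long noncoding genes and near that of expressed protein-coding genes. On CPM, which does not divide by length, it was 5.27 in replicate 1 and 6.69 in replicate 2, against 4.64 and 4.59 for the same long noncoding genes and 18.8 and 18.6 for the protein-coding ones. In bulk RNA, fewer cells with a transcript and less of it per cell cannot be told apart.

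Gas5, growth arrest-specific transcript 5, which is also known to bind the glucocorticoid receptor, was the highest member. It lies at chr1:161034422-161038539 on the plus strand (ENSMUSG00000053332.13, mm10) and holds 10 snoRNA entries. Its level was 47.5 TPM in replicate 1 and 32.9 TPM in replicate 2, or 40.2 ± 10.4 TPM (SD, n = 2), and it ranked 37 of the 10155 long noncoding genes by mean TPM and 79 by mean CPM. Both libraries placed it above the higher value of every other member.

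Snhg15 (ENSMUSG00000085156.7, chr11:6525591-6528760, minus strand), host of the H/ACA snoRNA Snora9, followed with 19.4 TPM in replicate 1 and 16.3 TPM in replicate 2. Snhg1 (ENSMUSG00000108414.1, chr19:8723475-8726443, plus strand), the host of Snord22 and of 7 shorter snoRNAs, was at 14.9 TPM and 11.2 TPM. Snhg15 was above Snhg1 in both libraries and their values did not overlap. On CPM the order was the other way round, with 9.08 ± 2.45 CPM for Snhg15 and 16.6 ± 3.41 CPM for Snhg1 (SD, n = 2).

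The next 5 genes formed a run in which each overlapped its neighbour, and the highest of them by mean, Snhg8, also overlapped Snhg1. Snhg8 (ENSMUSG00000104960.1, chr3:123507552-123508404, minus strand), host of Snora24, had 7.49 TPM in replicate 1 and 11.3 TPM in replicate 2. It was below Snhg1 in replicate 1 and above the 11.2 TPM of Snhg1 in replicate 2. Snhg6 (ENSMUSG00000098234.7, chr1:9941959-9944118, minus strand), host of Snord87, was at 9.40 and 5.73 TPM. Snhg5 (ENSMUSG00000097195.9, chr9:88521050-88522929, minus strand), host of Snord50a and Snord50b, was at 7.47 and 5.29 TPM. Snhg8 was thus below Snhg6 in replicate 1 and above it in replicate 2, whereas Snhg6 was above Snhg5 in both. Snhg20 (ENSMUSG00000086859.4, chr11:117076008-117078955, plus strand), host of the small Cajal body RNA (scaRNA) Gm26083, was at 5.08 and 7.32 TPM. Snhg12 (ENSMUSG00000086290.9, chr4:132308623-132311024, plus strand), host of 5 entries that include Snora44, Snora61 and Snord99, was at 6.02 and 5.12 TPM.

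Snhg3 (ENSMUSG00000085241.7, chr4:132348014-132353686, minus strand), host of Snora73a and Snora73b, was the lowest. Its level was 2.91 TPM in replicate 1 and 4.46 TPM in replicate 2, both below the lower value of Snhg12. It rested on 9.76 expected counts in replicate 1 (95% exact Poisson interval 4.63 to 18.1) and 47.7 in replicate 2 (35.1 to 63.3). Such intervals reflect counting error alone, because without molecular identifiers reads do not stand for independent molecules. In the other deposited quantification of the same libraries Gas5, Snhg15 and Snhg1 were again the 3 highest and Snhg3 the lowest by mean TPM.

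**Figure D1:**
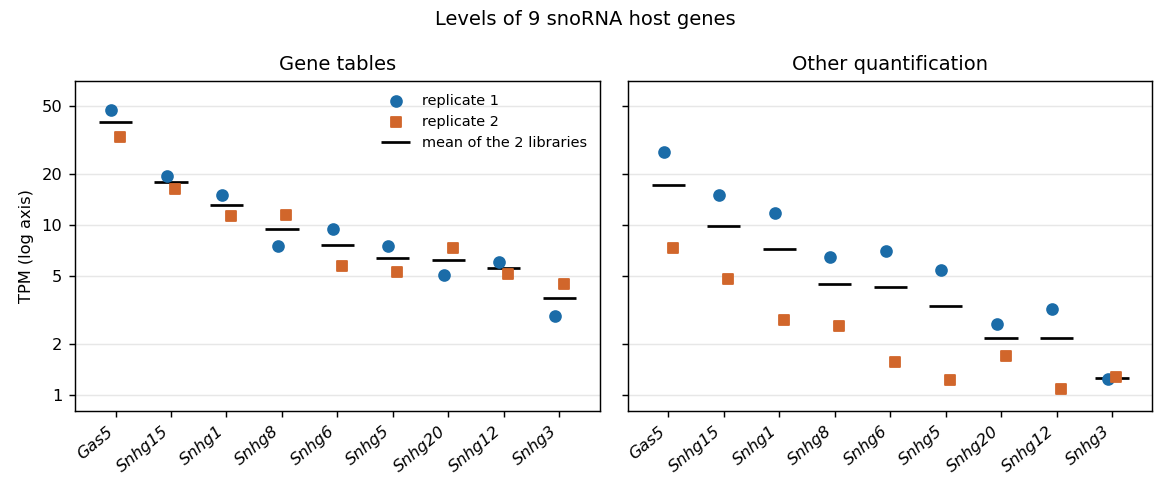
TPM of the 9 host genes on a log axis, in the gene tables (left) and in the other quantification (right); circles are replicate 1, squares replicate 2 and bars the mean of both libraries. Gas5 is highest in both panels at 47.5 and 32.9 TPM in the gene tables, and the values of the other quantification lie lower in replicate 2 than in replicate 1 for every gene but Snhg3.

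The replicates were compared gene by gene after subtracting the median log2 ratio of all genes. Snhg8, Snhg20 and Snhg3 were past 2-fold, all higher in replicate 2, so 3 of 9 members were past 2-fold, against 9.9% of the 11380 genes with a mean of at least 1 TPM and 20.5% of the long noncoding genes among them. Of all 11380 genes, 582 were past 2-fold and higher in replicate 2, and 545 lower. The other 6 members lay between -0.02 (Snhg6) and 0.46 (Snhg12) on the log2 scale.

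Snhg3 had a centred log2 ratio of 1.31 on TPM, 1.38 on CPM and 2.31 in the other quantification, past 2-fold on each. Snhg8 had 1.29 on TPM and 1.52 on CPM but 0.91 in the other quantification, so its call rested on the tables used. Snhg20 had 1.22 on TPM and 1.62 in the other quantification but 0.43 on CPM. The CPM of Snhg8 was 2.90 in replicate 1 and 7.88 in replicate 2, a ratio of 2.72 (95% exact counting interval 1.84 to 4.17), and that of Snhg3 was 0.944 and 2.33, a ratio of 2.47 (1.21 to 5.37). Gas5, with the most counts, had 33.3 and 42.5 CPM, a ratio of 1.28 (1.13 to 1.45).

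**Figure D2:**
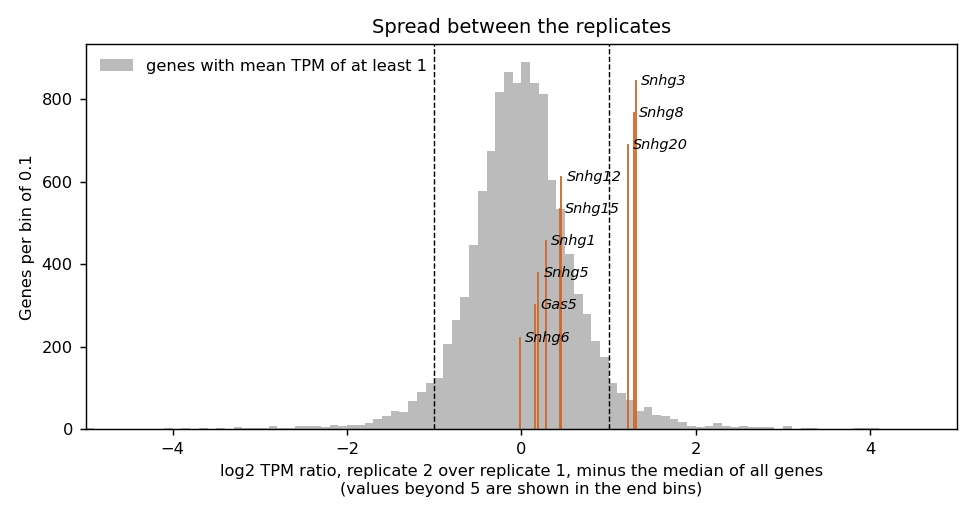
Number of genes per bin of 0.1 by the log2 TPM ratio of replicate 2 over replicate 1 after subtracting the median, for 11380 genes with a mean of at least 1 TPM (grey), with the 9 host genes marked by orange lines whose heights only separate the names. Snhg20, Snhg8 and Snhg3 lie to the right of the dashed line at 2-fold, and the other 6 host genes lie within 2-fold.

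Some members share sequence with other genes, and the strand setting of the counting is not given in the sources used here. Rcc1, which encodes the chromatin-bound exchange factor of the GTPase Ran, lies on the strand of Snhg3 and overlaps it over 5592 bases, with starts 81 bases apart. The level of Rcc1 was 1.92 TPM in replicate 1 and 2.71 TPM in replicate 2, a centred log2 ratio of 1.19. The antisense long noncoding gene Gm17300, which overlaps Snhg3 over 1611 bases, was at 1.94 and 3.51 TPM, a centred log2 ratio of 1.55. Thus both genes that overlap Snhg3 were also past 2-fold and higher in replicate 2. Their part in the Snhg3 value was not tested.

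Zbtb37 lies antisense to the first 428 bases of Gas5 and was at 4.33 and 2.40 TPM. Slc3a2, which encodes the heavy chain of amino acid transporters, starts 106 bases from Snhg1 on the opposite strand without overlap. Its level was 137 TPM in replicate 1 and 108 TPM in replicate 2, above Snhg1 in both. Mcmdc2 overlaps 127 bases of Snhg6 on the opposite strand and was at 2.87 and 0.93 TPM.

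The starts of the host genes were read from RefSeq promoter sequences (GRCm38.p6), which hold 250 bases before and 50 bases after each annotated start. An entry was found for 8 of the 9 members, all but Snhg6. The motif searched, on the gene's strand, was a C at the annotated start followed by at least 4 pyrimidines, as in terminal oligopyrimidine messengers. It was found at the start in 2 of 8 members, Gas5 and Snhg8, and in 3.01% of 27025 genes. Beginning within 10 bases of the start, it was found in 4 of 8, with Snhg12 and Snhg3 added, and in 28.8% of genes. These 4 windows and that of Snhg1, whose run is shorter, are shown because they place the pyrimidine runs beside the start. Each holds 30 bases before the annotated start and 30 from it on, 5′ to 3′ on the gene's strand, and the capitals mark the pyrimidine run that begins with C.
Gas5 (second entry), chr1:161035136-161035195, plus strand: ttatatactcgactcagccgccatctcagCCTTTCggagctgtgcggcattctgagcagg
Snhg8, chr3:123508307-123508366, minus strand: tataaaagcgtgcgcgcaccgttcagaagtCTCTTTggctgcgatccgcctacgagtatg
Snhg12, chr4:132308648-132308707, plus strand: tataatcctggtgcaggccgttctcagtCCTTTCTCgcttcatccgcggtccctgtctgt
Snhg3, chr4:132353657-132353716, minus strand: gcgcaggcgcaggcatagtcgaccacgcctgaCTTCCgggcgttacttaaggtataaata
Snhg1, chr19:8723457-8723516, plus strand: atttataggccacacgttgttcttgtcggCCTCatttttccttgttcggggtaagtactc

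The annotated start in the Gas5 window lies 3 bases after the first base of the spliced isoform Gas5-224 and at the first base of Gas5-218. Among 17 protein-coding snoRNA hosts with an entry, many of them ribosomal protein genes, 0 had the motif at the annotated start and 2 within 10 bases. Among the 10 other noncoding hosts with an entry, 1 had it at the start and 4 within 10 bases. A window without the motif says only that these letters were not found at that annotated start.

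The 9 genes hold 31 annotated small RNA entries on their own strand, 30 snoRNAs and 1 scaRNA, at 29 distinct places, since Snord80 and Snora16a are each annotated under 2 overlapping identifiers. The entries under 100 bases number 21, and 17 of these have both TGATGA in the first 20 bases and CTGA in the last 15. The other 10 are 126 to 205 bases long, and 8 of them end in ACA followed by 3 bases. Sequences are from the GENCODE M21 transcripts (mm10), 5′ to 3′.

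Gas5 holds only entries under 100 bases. Snord47 and Snord80 show the form of the RNAs that had no counts here, with the C box and the D box in capitals.
Snord47, chr1:161038082-161038158, plus strand: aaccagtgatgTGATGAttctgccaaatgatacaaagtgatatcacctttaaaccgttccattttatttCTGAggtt
Snord80, chr1:161037604-161037680, plus strand: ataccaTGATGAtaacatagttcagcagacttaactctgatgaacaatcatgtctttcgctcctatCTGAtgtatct

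The hosted RNAs with most counts were longer. Snord22, known in the processing of small subunit ribosomal RNA, is shown with its D box in capitals; the letters TGATGA are not in its first 20 bases. Snora9 and the scaRNA Gm26083 are shown with the ACA near the 3′ end in capitals, and Snora44 has no such match.
Snord22, chr19:8725866-8725991, plus strand: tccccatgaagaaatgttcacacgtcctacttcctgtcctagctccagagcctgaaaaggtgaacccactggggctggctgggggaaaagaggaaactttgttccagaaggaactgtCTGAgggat
Snora9, chr11:6528033-6528165, minus strand: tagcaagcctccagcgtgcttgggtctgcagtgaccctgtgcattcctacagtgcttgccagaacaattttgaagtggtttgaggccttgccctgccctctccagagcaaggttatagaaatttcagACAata
Snora44, chr4:132309941-132310069, plus strand: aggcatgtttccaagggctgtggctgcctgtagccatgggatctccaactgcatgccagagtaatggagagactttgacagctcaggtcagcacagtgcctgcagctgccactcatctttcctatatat
Gm26083, chr11:117077243-117077435, plus strand: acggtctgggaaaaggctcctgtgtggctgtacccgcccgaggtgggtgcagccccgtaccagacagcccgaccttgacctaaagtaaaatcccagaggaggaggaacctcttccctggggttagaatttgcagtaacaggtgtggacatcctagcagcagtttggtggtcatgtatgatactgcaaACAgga

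Snora73a and Snora73b, the copies hosted by Snhg3, are H/ACA RNAs known in ribosomal RNA processing rather than as pseudouridine guides. They are 205 bases long and identical at 198 positions (96.6%), so reads can be shared between them. The capitals mark the 7 differences, which, counted from 1 at the 5′ end with the Snora73a base first, are G3A, G54A, A111G, T164C, G203A, T204A and T205A.
Snora73a, chr4:132352775-132352979, minus strand: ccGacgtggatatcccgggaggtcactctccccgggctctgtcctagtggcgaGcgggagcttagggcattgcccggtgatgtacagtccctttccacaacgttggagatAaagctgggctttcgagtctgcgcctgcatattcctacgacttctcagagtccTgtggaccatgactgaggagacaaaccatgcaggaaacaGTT
Snora73b, chr4:132352322-132352526, minus strand: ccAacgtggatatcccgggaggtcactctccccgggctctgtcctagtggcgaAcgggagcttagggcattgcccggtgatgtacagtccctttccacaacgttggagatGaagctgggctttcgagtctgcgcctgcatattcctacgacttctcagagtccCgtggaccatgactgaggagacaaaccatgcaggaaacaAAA

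Hosted RNAs are given by counts, because the TPM of an RNA shorter than the sequenced fragments is not reliable; the labels give a fragment range of 250 to 400 with no unit. Of the 31 entries, 24 had 0 counts in both libraries. All 21 entries under 100 bases were among them, which include the entries of Snhg5 and Snhg6 and all 10 of Gas5 (Gm26224, Gm22489, Gm22357, Gm23212, Snord78, Mir5117, both Snord80 entries, Snord47 and Gm25789). The tables give these 21 an effective length of 0 in both libraries, as they do for all 462 snoRNA and scaRNA genes under 100 bases, every one of which also had 0 counts. The shortest snoRNA or scaRNA gene with any count was 117 bases long. The zeros of the short entries are therefore not a measurement of absence and set no upper limit. For an RNA with an effective length above 0, taking 3 counts as the limit, 0 counts allow up to 0.290 CPM in replicate 1. In replicate 2 they allow up to 0.146 CPM. In the other quantification 5 of the 21 had at least 1 estimated count in either library, with a highest value of 8.56, Gm22357 of Gas5 in replicate 2.

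At least 10 counts in both libraries were found for 3 of 31 entries, against 1.67% of all 1558 snoRNA and scaRNA genes. These were the 3 hosted entries over 150 bases; of the other 61 genes over 150 bases, 17 (27.9%) had at least 10 counts in both. Snora73b had 35.4 counts in replicate 1 and 813 in replicate 2. Snora73a had 23.5 and 664 counts. The scaRNA Gm26083 had 12.5 and 146 counts. All 3 were higher in replicate 2, beyond the difference in depth, with CPM ratios of 11.6 (95% exact counting interval 8.36 to 17.0), 14.3 (9.63 to 23.1) and 5.89 (3.41 to 12.2). In the other quantification the ratios were lower, 5.22 (4.29 to 6.37), 5.40 (4.35 to 6.83) and 4.45 (2.88 to 7.14), which for Snora73b and Snora73a is outside the first intervals. The direction was the same.

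A further 3 entries, each 126 to 133 bases long, had at least 10 counts in replicate 2 only. Snord22 had 1.96 counts in replicate 1 and 663 in replicate 2, or 0.189 and 32.3 CPM, a ratio of 171 (95% exact counting interval 46.1 to 1384). The other quantification gives it 16.2 and 794 counts, a CPM ratio of 33.4 (20.6 to 59.3), so the size of the difference depends on the quantification. Snora44 had 1 and 16.8 counts, a ratio of 8.49 (1.34 to 358.5), and 8.11 (1.93 to 68.4) in the other quantification. The replicate 1 values of Snord22 and Snora44 lie under the limit of 3 counts, and the tables give both an effective length of 0 in that library. Snora9 had 0 and 13.5 counts, with a lower bound of the CPM ratio of 1.54 (95% exact counting interval). Snora24 of Snhg8 had 0 and 0.48 counts, under the limit that 0 allows. The libraries of the same group thus stood far apart for Snora73a, Snora73b and Gm26083. For Snord22 the ratio of 171 rests on a replicate 1 value at an effective length of 0, so its size is not measured there. The other quantification also had Snord22 higher in replicate 2. For Snora44 and Snora9 the intervals reach down to 1.34 and 1.54, so the size of their difference is uncertain. Leaving out replicate 1 raises the count of entries with at least 10 counts from 3 to 6.

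**Figure D3:**
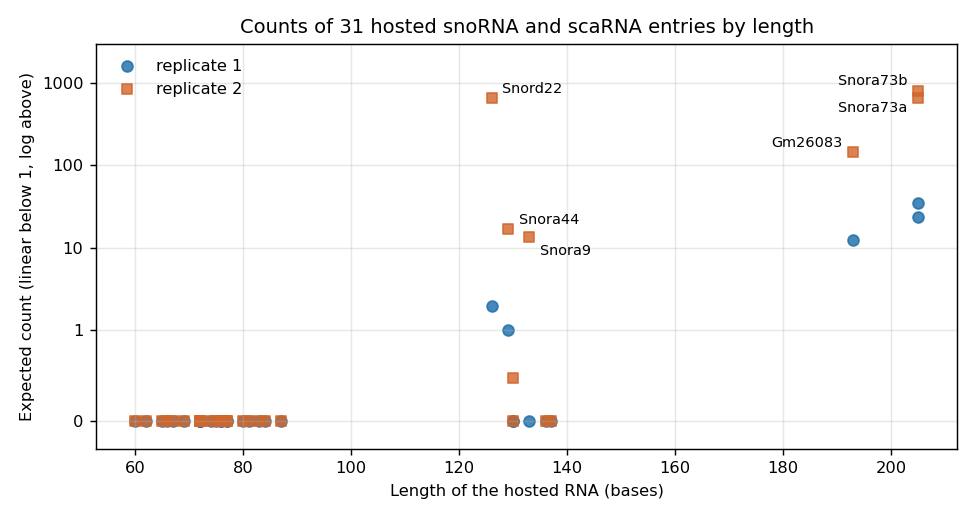
Expected counts of the 31 hosted entries by their length in bases, with replicate 1 as circles and replicate 2 as squares; the count axis is linear below 1 and logarithmic above. All 21 entries under 100 bases lie at 0, and each of the 6 entries with at least 10 counts in replicate 2 lies higher there than in replicate 1.

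In the gene tables other small RNAs were also higher in replicate 2. Of 38 other snoRNA and scaRNA genes with counts in both libraries and at least 10 in either, 37 had a higher CPM in replicate 2, with a median log2 ratio of 2.04 (quartiles 1.47 and 2.99, highest 5.23). The 5 hosted RNAs with counts in both libraries had log2 ratios from 2.56 to 7.42, with a median of 3.54, and 17 of the 38 others were at or above the lowest of them. Snord22, the highest at 7.42, and Snora44, at 3.085, had an effective length of 0 in replicate 1. The other quantification gave a different picture of the other genes, of which 101 of 171 had a higher CPM in replicate 2, with a median log2 ratio of 0.32. The 5 hosted RNAs with counts in both libraries and at least 10 in either lay there between 2.15 and 5.06, and 20 of the 171 others were at or above the lowest of them. The effective length the tables give to a 205-base RNA was 20.4 bases in replicate 1 and 38.3 in replicate 2, so the estimated fragment lengths differed between the libraries, as did the RNA input. The part of either in these counts was not tested.

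The host RNAs did not differ by as much. The summed hosts had 818 counts in replicate 1 and 2184 in replicate 2, a CPM ratio of 1.35, while the summed hosted entries had 74.3 and 2317 counts, a CPM ratio of 15.7. Of the 2317, Snord22 gave 663, and its effective length was 0 in replicate 1. In the other quantification these ratios were 1.23 and 7.17. Per host count there were 0.0907 hosted counts in replicate 1 and 1.06 in replicate 2. Gas5, Snhg5 and Snhg6 hold only entries under 100 bases, which have an effective length of 0. They added 344, 57 and 53 host counts in replicate 1 and no hosted counts. Hosts are therefore not compared on equal terms by hosted counts per host count. Snhg3, whose 2 entries are 205 bases long, was highest, with 6.02 hosted counts per host count in replicate 1 and 31.0 in replicate 2. In the other quantification it had 16.7 and 24.0. Its replicate 1 value rests on 9.76 host counts. Snora73a and Snora73b also lie whole inside Rcc1 on the same strand. The 29 and 100 counts of Rcc1 in replicates 1 and 2 are not part of the Snhg3 ratio. The Snhg3 isoform Snhg3-202 begins inside Snora73a and holds 159 of its 205 bases. That isoform took 67.2% of Snhg3 counts in replicate 1 and 56.2% in replicate 2, and how many of these counts lie on the bases shared with the snoRNA was not tested.

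The annotation lists 83 isoforms for the 9 genes, 38 of them in the class of retained introns. Only Gas5 (20 of 25 isoforms), Snhg1 (14 of 18), Snhg5 (3 of 6) and Snhg8 (1 of 3) have such isoforms annotated, so the other 5 cannot show a share. In Gas5 they took 78.5% of transcript TPM in replicate 1 and 77.0% in replicate 2, or 77.7% ± 1.06 (SD, n = 2). In Snhg5 they took 62.2% and 85.4%. Both genes were above 50% in both libraries. Snhg1, at 44.1% and 53.9%, fell on both sides of 50%, and Snhg8, at 29.1% and 47.5%, below it. The 50 other long noncoding genes that could be compared had a median of 45.0%, with 22 (44.0%) above 50%, and 5896 protein-coding genes had a median of 26.5%. By share of counts, which gives longer isoforms more weight than TPM does, the means of all 4 hosts were above 50%, at 90.4% for Gas5, 78.0% for Snhg1, 76.4% for Snhg5 and 56.0% for Snhg8. The share of counts was not computed for other genes, so whether it is high for a host gene cannot be said. Gas5, Snhg1 and Snhg5 were above 50% of counts in both libraries, and Snhg8 was at 45.5% in replicate 1 and 66.6% in replicate 2. The libraries hold nucleoplasmic total RNA, which can include host RNAs not yet spliced. The part of such RNAs in the isoform shares given here and below was not tested.

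A class name depends on the annotator, so isoforms were also grouped by whether an exon holds a whole hosted RNA. Such isoforms exist for 7 of the 9 genes, all but Snhg3 and Snhg6. Their share of transcript TPM was 46.6% in replicate 1 and 47.2% in replicate 2 for Gas5, and 44.1% and 44.6% for Snhg1. In Snhg12, which has no isoform of the retained-intron class, they took 51.4% and 53.4%. In this quantification these 3 genes differed little between the libraries, but in the other Snhg12 had 46.8% and 59.5%. Snhg15 had the lowest shares, 19.1% and 22.1%, and Snhg20 had 37.0% and 31.6%. In Snhg5 the share was 39.8% and 59.4%, and in Snhg8, where the 1 retained isoform is also the 1 that holds Snora24, 29.1% and 47.5%. The other quantification gave 48.1% and 58.9% for Snhg5 and 38.8% and 42.2% for Snhg8, so the size of these gaps depends on the quantification.

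**Figure D4:**
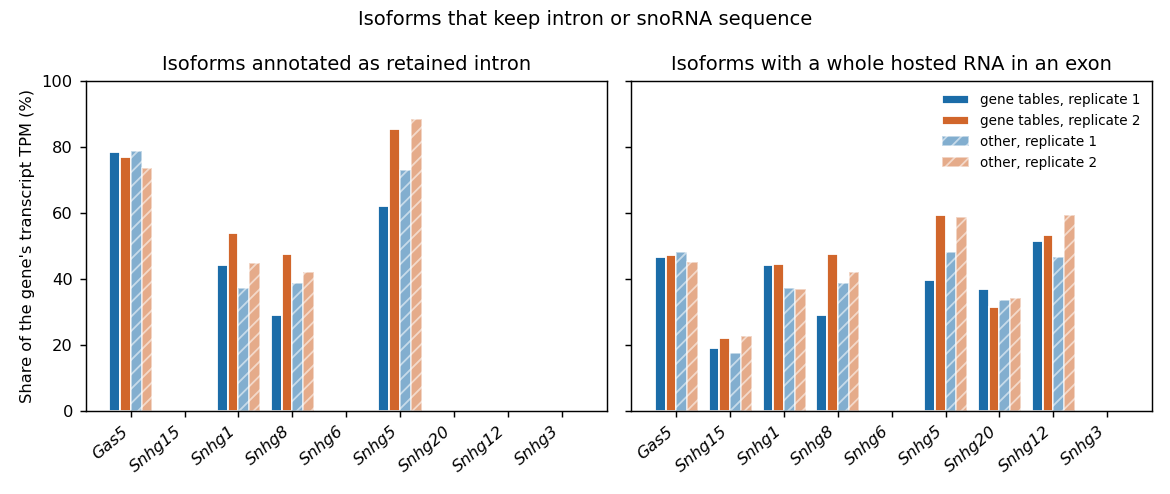
Share of each host gene's transcript TPM (percent) in isoforms annotated as retained intron (left) and in isoforms with a whole hosted RNA in an exon (right), for each library and each quantification. Genes with no bar have no such isoform annotated; Gas5 is near 78% on the left and 47% on the right in the gene-table quantification.

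Which isoform led by TPM was less certain than the classes. The same isoform had the highest TPM in both libraries for 5 of 9 genes, and in all 4 estimates (both libraries and both quantifications) for 4, Snhg6-205, Snhg12-206, Snhg15-202 and Snhg20-202. How often this holds for other genes was not counted, so these numbers are not a trait of the host genes. In Gas5 the isoform Gas5-220, of the retained-intron class, led in replicate 1 with 27.5% of TPM, and the 12-exon spliced Gas5-224 led in replicate 2 with 18.5%. They share 487 exon bases, 97.0% of the shorter Gas5-224. By counts the 2556-base Gas5-218, whose exons hold 6 whole snoRNAs, led in both libraries and both quantifications. It had 94.3 counts in replicate 1 and 297 in replicate 2, or 27.4% and 34.0% of Gas5 counts.

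In Snhg1 the leader by TPM depended on the quantification. The spliced Snhg1-211 took 55.9% and 38.6% of TPM in the transcript tables that match the gene tables, while Snhg1-207 took 0 and 7.49%. In the other quantification Snhg1-207 took 62.8% and 49.9%, and Snhg1-211 took 0 and 5.25%. The pair share 573 exon bases, 94.7% of Snhg1-211, and Snhg1-207 begins inside the snoRNA Gm25855, of which it holds 60 of 72 bases. By counts the 2728-base Snhg1-215, whose 2 exons hold 7 whole snoRNAs, led in both libraries and both quantifications. It had 63.0 counts in replicate 1 and 203 in replicate 2, or 42.9% and 51.9% of Snhg1 counts. Snhg3 had no isoform with at least 10 counts in both libraries. By TPM Snhg3-202 led in replicate 1 and Snhg3-204 in replicate 2.

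**Figure D5:**
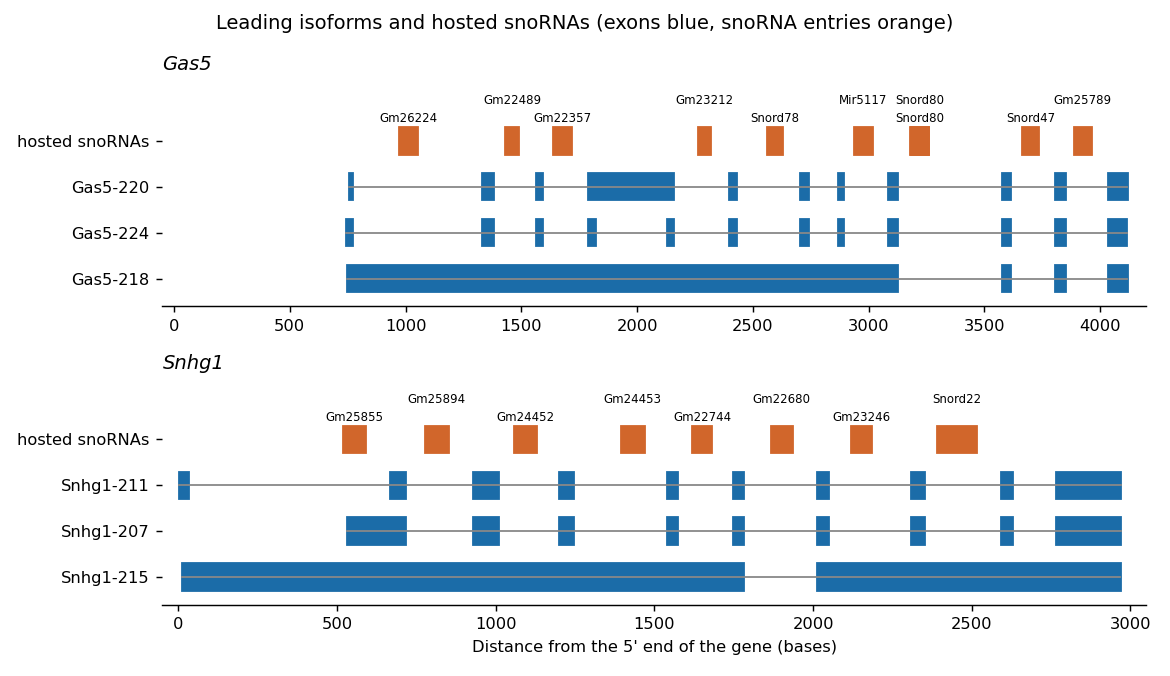
Exons (blue) of 3 isoforms each of Gas5 and Snhg1 and hosted snoRNA entries (orange), by distance in bases from the 5′ end of the annotated gene. The exons of Gas5-218 and Snhg1-215 run across 6 and 7 snoRNA entries, whereas the exons of Gas5-220, Gas5-224 and Snhg1-211 hold none.

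Other host genes gave a wide range. Of 12 further noncoding hosts sought, 9 were matched, of which the annotation calls Snhg11 protein-coding. Of these 9, 3 reached 1 TPM in each library. These were Zfas1 at 30.7 ± 3.48 TPM, Snhg17 at 5.74 ± 1.36 TPM and Epb41l4aos at 4.41 ± 1.56 TPM (SD, n = 2). Snhg10 had 0 and 4 counts and Snhg18 had 0 in both. Zfas1, the highest of that list, was below Gas5 in each library. The median of the 9 matched hosts was 0.32 TPM in replicate 1 and 0.81 TPM in replicate 2, against 7.49 and 7.32 TPM for the members. In the other quantification it was 5.50 and 0.956 TPM, against 6.45 and 1.68 TPM for the members. The size of that gap thus depends on the quantification. All 22 protein-coding hosts reached 1 TPM in each library, with a median of 33.5 ± 5.07 TPM (SD, n = 2). They were led by the translation factor gene Eif4a1 at 205.5 ± 47.8 TPM, the chaperone gene Hspa8 at 161 ± 44.9 TPM and Tpt1 at 138 ± 32.0 TPM (SD, n = 2). The lowest were Nop56 at 16.3 ± 3.78 TPM and Dkc1 at 2.35 ± 1.60 TPM, which themselves encode snoRNA-binding proteins.

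The core proteins of box C/D particles all reached it too (4 of 4), from Nop56 and Nop58 (11.1 ± 6.38 TPM) to the methyltransferase gene Fbl (5.14 ± 0.566 TPM) and Snu13 (5.01 ± 1.90 TPM). Of the H/ACA core 3 of 4 did, with Nhp2 at 6.59 ± 0.70 TPM, Gar1 at 3.47 ± 1.72 TPM and Nop10 the exception at 0.49 ± 0.127 TPM (SD, n = 2). Of 9 assembly factors 2 did, Nolc1 at 2.08 ± 0.354 TPM and Nufip1 at 1.47 ± 0.240 TPM, and Znhit3 (0.525 TPM) and Coil (0.43 TPM) were the lowest by mean. All 11 genes of nonsense-mediated decay reached 1 TPM in each library, with a median of 9.38 ± 3.20 TPM. Their highest were the kinase gene Smg1 at 46.8 ± 23.4 TPM and Smg9 at 23.2 ± 0.453 TPM, and their lowest Upf2 at 4.07 ± 2.26 TPM and Smg8 at 3.58 ± 1.49 TPM (SD, n = 2). All 5 exon junction complex genes and 5 of 6 regulators of pyrimidine-run messengers also did, the latter led by Larp1 at 21.6 ± 0.502 TPM.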

How the data were processed

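Expected counts and TPM per gene and per transcript are as the authors deposited them, with the columns of RSEM; another deposited table per library, with the columns of kallisto, has estimated counts and TPM per transcript and is called the other quantification. The deposited percent of a gene's TPM per isoform was recomputed from TPM. The authors' readme files name mm10 and annotation M21. The software, its version, its strand setting and any filter were not given in the sources used here. Gene tables held 10395300 and 20515408 expected counts; 26345 rows that name no gene held 0.504% and 0.0968% of them and were left out. CPM used gene rows. Python 3.11.15, pandas 2.3.3, NumPy 2.4.6 and SciPy 1.17.1 were used, and the ratio step was tested on simulated data.

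The 1 group of 2 libraries allows no test between conditions, so values are described with SDs, which cover the spread of these libraries only. The libraries were not copies of each other. Ratios were log2 of TPM with no pseudocount, for genes with a mean of at least 1 TPM and a value above 0 in both. A hosted RNA is a snoRNA or scaRNA gene that lies whole inside a host on its strand. Exact intervals are Poisson for a count (counts were not rounded) and binomial for a ratio (counts rounded to whole numbers). Members, lists and tests were chosen with earlier results of these data known. Named were all members, hosted RNAs of Gas5 and those with most counts, overlapping genes or genes starting within 2000 bases with a mean of at least 1 TPM, and the 3 highest and 2 lowest of other lists; Snhg4, Snhg7 and Snhg16 were not matched. Some genes that this rule takes are not reported here. Alternatives were the other quantification, CPM, TPM rescaled over nuclear protein-coding genes, thresholds, centring, share of counts, either strand and leaving out each replicate.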

Additional observations from a re-analysis of the deposited data

How the results depend on the processing

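The median of the 9 host genes, 7.41 TPM, was 4.06 TPM in the other quantification, 35.8 TPM when rescaled over nuclear protein-coding genes and 5.98 on CPM. Levels of all 9 moved by more than 1 SD in the first 2 settings. Rescaling changes the unit and raises every level whatever the data, so its moves say nothing about stability. With 2 libraries, leaving out 1 cannot move a mean by 1 SD, so that setting says nothing about their stability. The number with retained-intron isoforms above 50% went from 2 to 4 by share of counts, which was not computed for other genes, and was 2 to 3 without 1 replicate. Hosted RNAs with at least 10 counts numbered 3 without replicate 2 and 6 without replicate 1. CPM ratios of hosted RNAs in the other quantification, an alternative chosen after seeing the data, kept their direction and were lower, by over 1.5 times for Snord22, Snora73a and Snora73b. The count at 1 TPM or more was 9 in every setting at that threshold, and it was 8 on CPM and 8 at a threshold of 5 TPM. The count past 2-fold stayed between 2 and 3. The replicate numbers name 2 libraries of 1 group. No paired analysis was possible because there is no second group. The zeros of hosted RNAs under 100 bases stand beside an effective length of 0, and 2 libraries allow no estimate of biological spread beyond them.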
